A study of Arabidopsis thaliana with 12 samples.

Results

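The genes described here encode subunits of RNA polymerases IV and V, the plant-specific polymerases of RNA-directed DNA methylation (RdDM), together with the 2 largest subunits of RNA polymerases I and II for comparison. The genes were chosen by gene identity and not by any measured value, though earlier results of these data were known by then. They number 10 of the 16755 genes with a level in the RNA-seq table, and 6 of the 10 belong to Pol IV, Pol V or both. The study asked whether RdDM affects chromosomal interactions and gene expression at a distance. It used *Arabidopsis thaliana* seedlings in the Col-0 background, grown under long days for 2 to 3 weeks. RNA-seq was performed in *ago4* (ago4-1, introgressed into Col-0) in 3 biological repeats and compared with Col-0 wild-type libraries that had been published before and were prepared in parallel. Hi-C, which ligates and sequences chromatin fragments that lie close together in the crosslinked nucleus, was performed on above-ground tissue of Col-0, *nrpe1* (nrpd1b-11) and *ago4*, with 3 biological repeats of each. Every *ago4* sample carries the ago4-1 allele and every *nrpe1* sample the nrpd1b-11 allele, and no sample combines the mutations.

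Pol I transcribes the large ribosomal RNA precursor and Pol II transcribes messenger RNAs. Pol IV and Pol V are specialized relatives of Pol II. Pol IV makes short transcripts that RDR2, an RNA-dependent RNA polymerase, turns into double-stranded RNA, which DCL3 cuts into small interfering RNAs. Pol V makes noncoding transcripts at the loci to be silenced. ARGONAUTE4 (AGO4), loaded with small interfering RNA, meets those transcripts and Pol V itself, and the DNA methyltransferase DRM2 then methylates the locus. Each polymerase has its own largest subunit, and Pol IV and Pol V share a second-largest subunit, which is distinct from that of Pol II. Several small subunits also have Pol IV or Pol V forms, while others are shared with Pol II.

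The largest subunits carry the catalytic metal site of the enzyme, a short stretch of aspartate, phenylalanine, aspartate, glycine and aspartate. Its coding DNA is shown because it is what the largest subunits have in common, with the 15 bases of the site in capitals, 15 coding bases on either side and the sense strand written 5′ to 3′ from the RefSeq genome (TAIR10.1, whose nuclear coordinates are those of TAIR10).
NRPD1, chr1:23359168-23359212, minus strand: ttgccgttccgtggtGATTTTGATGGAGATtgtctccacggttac
NRPE1, chr2:16717444-16717488, plus strand: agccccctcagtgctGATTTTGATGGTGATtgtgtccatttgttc
NRPB1, chr4:16965697-16965741, minus strand: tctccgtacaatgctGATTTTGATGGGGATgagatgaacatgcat
NRPA1, chr3:21357560-21357775, plus strand, with an intron left out: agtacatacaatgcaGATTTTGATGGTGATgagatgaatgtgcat

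The site began at residue 447 of 1453 in NRPD1, at residue 449 of 1976 in NRPE1, at residue 495 of 1839 in NRPB1 and at residue 602 of 1670 in NRPA1. All 4 largest subunits held the site. Over the aligned residues, NRPD1 and NRPE1 were 32.2% identical to each other. NRPD1 was 25.8% and NRPE1 26.2% identical to NRPB1, the Pol II subunit, while NRPA1 was 33.2% identical to NRPB1. Among the second-largest subunits, NRPD2/NRPE2 was 38.9% identical to NRPB2 and NRPA2 was 32.2% identical to NRPB2.

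The carboxyl-terminal parts differed. In Pol II this part is a long row of heptads (tyrosine, serine, proline, threonine, serine, proline and serine) that are phosphorylated during transcription, and NRPB1 held 15 copies of the consensus heptad while the other translated subunits held 0. In Pol V it holds tryptophan-glycine pairs that bind ARGONAUTE proteins. Counted over the whole protein and in either order, NRPE1 held 20 such pairs, against 3 in NRPD1, 0 in NRPB1 and 1 in NRPA1. Those of NRPE1 lay between residue 1215 and residue 1692 of 1976. Of 27415 annotated nuclear proteins, 5 held at least as many, NRPE1 included, which is 0.0182%, and the median protein held 0. NRPE1 also held a glutamine-serine repeat of 17 pairs near its end, from residue 1914 to residue 1947. It was encoded by a perfect run of 17 copies of a 6-base unit in the last of the 17 exons, and that run is shown because the 50-base windows inside it have no single position. The first copy of the unit is in capitals.
NRPE1 repeat, chr2:16723215-16723316, plus strand: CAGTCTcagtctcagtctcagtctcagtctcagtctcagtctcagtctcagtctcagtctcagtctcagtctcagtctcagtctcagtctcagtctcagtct

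RNA levels came from 1 mean log2 CPM (CPM stands for read counts scaled to a common library total) per gene, which the authors took over the libraries of their *ago4* and Col-0 comparison. The label of that mean does not name the libraries, so this set of libraries is inferred. A level per library was not analysed here, so the levels have no spread between replicates, no difference between genotypes is described and neighbours in an order cannot be told apart beyond their error. In these bulk samples fewer cells of a type and less RNA per cell cannot be told apart either. Leaf markers were high. CAB3, a chlorophyll-binding protein of photosystem II, was highest at 10.96 log2 CPM per kb and RCA, the activator of the carbon-fixing enzyme Rubisco, was lowest at 8.31 among the 3 leaf markers. A level was found here for 0 of 4 root, 0 of 2 flower, 0 of 2 seed and 0 of 1 pollen markers.

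Levels of different genes were compared per kb of exon. Over the 16604 genes found on the nuclear chromosomes, the median level was 1.93 log2 CPM per kb and the middle part of the distribution reached from 0.80 to 3.22. Of the 27444 annotated nuclear protein-coding genes, only 16151 had a level, and the lowest mean listed was -0.73 log2 CPM. Ranks and medians given here for all genes cover only genes with a level, so they are not ranks in the whole genome. The 10 genes lay between -0.78 and 2.93, a range of 13.03-fold, and 4 of them lay above the median gene. Among the Pol IV and Pol V subunits 3 of 6 lay above it, and among the Pol I and Pol II subunits 1 of 4. These counts rest on near ties, with NRPA2 at 1.9252 and NRPB1 at 1.9168 against the median of 1.9254. Without bases shared with another gene, NRPA2 came to 1.9646, above it. Against genes with exon lengths within 1.25-fold of their own, NRPB1, NRPB2, NRPA2, NRPE1, NRPD2/NRPE2 and NRPE5 lay above the median. The others lay below it.

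From highest to lowest the order was NRPD4/NRPE4, NRPE7, NRPB2, NRPE5, NRPA2, NRPB1, NRPD2/NRPE2, NRPE1, NRPA1 and NRPD1. Neighbours in this order differed by 1.01-fold, between NRPA2 and NRPB1, to 2.10-fold, between NRPA1 and NRPD1.

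**Figure D1:**
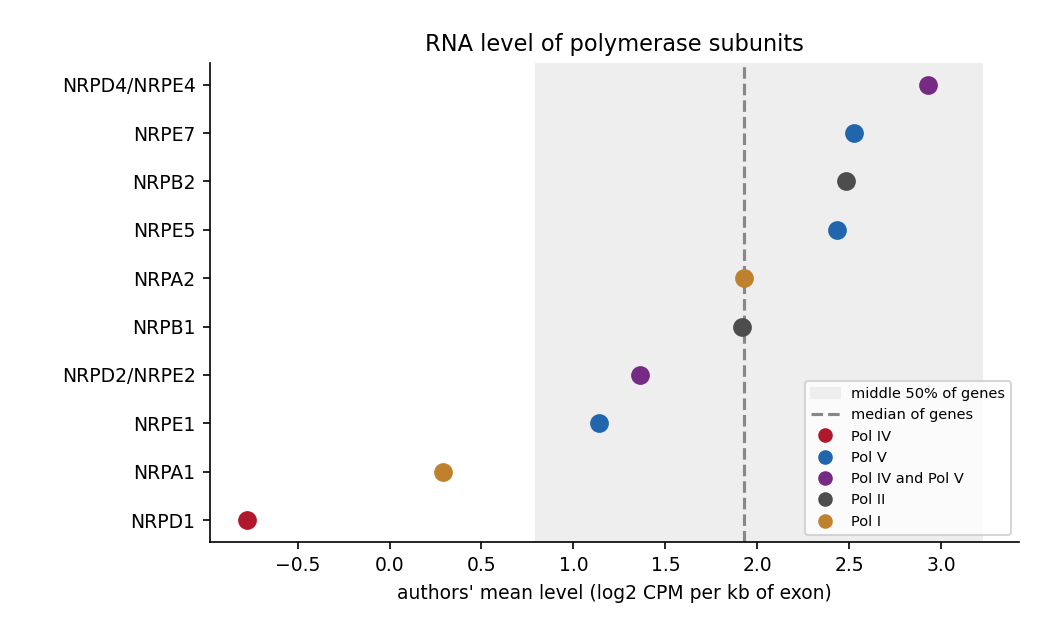
RNA level of each polymerase subunit in log2 CPM per kb of exon, from the authors' mean for their *ago4* and Col-0 comparison, divided here by exon length. Each point is 1 gene, coloured by polymerase, the shaded band spans the lower to the upper quartile of all genes with a level and the dashed line their median at 1.93. NRPD1 was lowest at -0.78 and NRPD4/NRPE4 highest at 2.93.

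NRPD1 (AT1G63020, chr1:23354685-23362589, minus strand), the largest subunit of Pol IV, had the lowest level of the 10 genes. Its mean was 1.65 log2 CPM, or 3.14 CPM, over 5380 bases of exon. That came to -0.78 log2 CPM per kb, or 0.584 CPM per kb, above 4.09% of the genes with a level. Among 604 genes with exon lengths within 1.25-fold of its own it stood above 22.5%, so its rank was also low among genes as long as itself.

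NRPE1 (AT2G40030, chr2:16714460-16723718, plus strand), the largest subunit of Pol V and the gene mutated in *nrpe1*, had a mean of 3.87 log2 CPM, or 14.6 CPM, over 6644 bases of exon. Its level of 1.14 log2 CPM per kb, or 2.20 CPM per kb, was above 32.0% of all genes but above 63.7% of the 289 genes of like length. Per kb, NRPE1 was 3.77-fold higher than NRPD1. The largest subunit of Pol V therefore stood 1.92 above that of Pol IV on the log2 scale.

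NRPD2/NRPE2 (AT3G23780, chr3:8567572-8574209, minus strand), the second-largest subunit shared by Pol IV and Pol V, had a mean of 3.42 log2 CPM, or 10.7 CPM. Over 4146 bases of exon this gave 1.36 log2 CPM per kb, or 2.58 CPM per kb, above 37.0% of all genes and above 54.7% of the 1473 genes of like length. The summed level of the partners it can pair with, NRPD1 and NRPE1, was 2.79 CPM per kb, 1.08 times its own, and NRPE1 gave 79.1% of that sum. Without length correction the sum was 1.67 times its own. These are RNA levels and carry no measure of the protein complexes.

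NRPD4/NRPE4 (AT4G15950, chr4:9040683-9042129, plus strand), the fourth subunit of both polymerases, forms a stalk with the seventh subunit. It had a mean of 2.63 log2 CPM over 814 bases of exon. At 2.93 log2 CPM per kb, or 7.61 CPM per kb, it was the highest of the 10 genes per kb and stood above 70.3% of all genes. Among the 1622 genes of like length it stood above 46.3%.

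NRPE5 (AT3G57080, chr3:21125725-21128075, plus strand) is the fifth subunit of Pol V. Its mean was 2.95 log2 CPM over 1427 bases, which gave 2.43 log2 CPM per kb, above 61.2% of all genes and above 55.0% of the 4982 genes of like length. NRPE7 (AT4G14660, chr4:8406247-8407896, minus strand), the seventh subunit of Pol V, had a mean of 2.72 log2 CPM over 1143 bases. It came to 2.53 log2 CPM per kb, above 62.9% of all genes and above 49.1% of the 3500 genes of like length. The small subunits thus stood at 2.43 to 2.93 log2 CPM per kb, above the 3 large subunits of Pol IV and Pol V at -0.78 to 1.36. Without length correction NRPE1 at 3.87 log2 CPM and NRPD2/NRPE2 at 3.42 lay above the small subunits at 2.63 to 2.95, and among genes of like length NRPE1 ranked above all 3 and NRPD2/NRPE2 above NRPE7 and NRPD4/NRPE4.

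NRPB1 (AT4G35800, chr4:16960558-16968128, minus strand), the largest subunit of Pol II, had a mean of 4.56 log2 CPM and a level of 1.92 log2 CPM per kb over 6250 bases of exon. NRPB2 (AT4G21710, chr4:11535404-11542405, minus strand), the second-largest subunit of Pol II, had a mean of 22.7 CPM and a level of 2.48 log2 CPM per kb over 4052 bases. Both were ranked in the middle of all genes, at 49.8% and 62.2%, but above 79.9% and 79.3% of the genes of like length.

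NRPA1 (AT3G57660, chr3:21353497-21363201, plus strand), the largest subunit of Pol I, had a mean of 2.79 log2 CPM and a level of 0.29 log2 CPM per kb over 5649 bases. NRPA2 (AT1G29940, chr1:10479007-10486824, minus strand), the second-largest subunit of Pol I, had a mean of 3.93 log2 CPM and a level of 1.93 log2 CPM per kb over 4006 bases. They stood above 38.9% and 67.5% of the genes of like length.

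**Figure D2:**
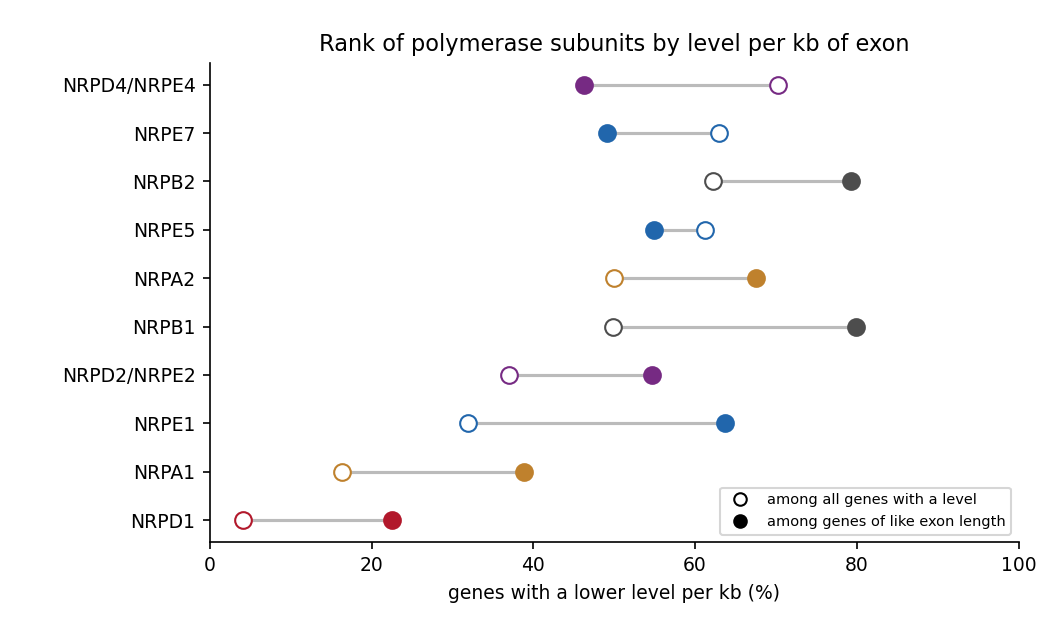
Rank of each polymerase subunit by level per kb of exon, as the percent of genes with a lower level. Open circles rank a gene among all 16604 genes and filled circles among the genes whose exon length is within 1.25-fold of its own. The 7 longest genes rank higher among genes of like length and the 3 short ones (NRPD4/NRPE4, NRPE5 and NRPE7) rank lower, and NRPD1 is lowest in both.

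Subunits at the same position were then compared with their Pol II counterparts. NRPD1 was 2.69 lower than NRPB1 on the log2 scale per kb, so NRPB1 was 6.47-fold higher. NRPE1 was 0.78 lower than NRPB1, which was 1.71-fold higher. NRPD2/NRPE2 was 1.12 lower than NRPB2, which was 2.17-fold higher. All 3 large subunits of Pol IV and Pol V thus had lower mean levels than their Pol II counterparts, with NRPD1 the farthest below. The Pol I subunits also lay below those of Pol II, with NRPB1 3.08-fold above NRPA1 and NRPB2 1.47-fold above NRPA2. NRPD1 lay below NRPA1 by 1.07 on the log2 scale and NRPE1 above it by 0.85.

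The small subunits were set beside their Pol II counterparts after the values had been seen. NRPB4 was 2.31-fold higher than NRPD4/NRPE4 per kb, at 4.14 against 2.93 log2 CPM per kb. NRPB5 was 6.28-fold higher than NRPE5, at 5.09 against 2.43. At the seventh position the order was turned, and NRPE7 at 2.53 was 1.22-fold higher than NRPB7 at 2.24 and 2.45-fold higher than NRPD7 at 1.23. The fifth position therefore showed the widest gap among the small subunits and the seventh the narrowest. Some small subunits are shared between polymerases, and such sharing was not taken into account in these comparisons.

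Per kb of exon, the second-largest subunit had the higher level within each polymerase. NRPB2 was 1.48-fold above NRPB1, NRPA2 3.10-fold above NRPA1, and in Pol III, which transcribes transfer RNAs and 5S ribosomal RNA, NRPC2 at 1.47 log2 CPM per kb was 2.76-fold above NRPC1 at 0.01. NRPD2/NRPE2 was 4.41-fold above NRPD1 and 1.17-fold above NRPE1. The gap between NRPD2/NRPE2 and NRPE1 was the smallest of these 5 pairs. Without length correction the order turned in 2 of the 5, with NRPE1 at 3.87 log2 CPM above NRPD2/NRPE2 at 3.42 and NRPB1 at 4.56 above NRPB2 at 4.50. It also turned in the rank among genes of like length, where NRPE1 stood at 63.7% and NRPD2/NRPE2 at 54.7%, and NRPB1 at 79.9% and NRPB2 at 79.3%.

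Of 22 other subunits of Pol II, Pol IV and Pol V, a level was found here for 15. Their median was 3.02 log2 CPM per kb and 9 of 15 lay above the median gene. The highest was NRPB6A, a sixth subunit common to several polymerases, at 5.18, and the lowest was NRPD2B (AT3G18090), a close relative of NRPD2/NRPE2, at -0.69. Of 16 RdDM proteins that act with Pol IV or Pol V, 15 had a level, with a median of 1.23 and 4 of 15 above the median gene. The highest was IDN2, an RNA-binding protein that acts with Pol V transcripts, at 2.48 log2 CPM per kb. The lowest was RDR2, the partner of Pol IV, at -0.66, close to NRPD1 at -0.78. AGO4 (AT2G27040), the gene mutated in *ago4*, had a mean of 3.69 log2 CPM and a level of 1.99 log2 CPM per kb, above 51.5% of all genes. Because its mean includes the mutant libraries, it is not the wild-type level.

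**Figure D3:**
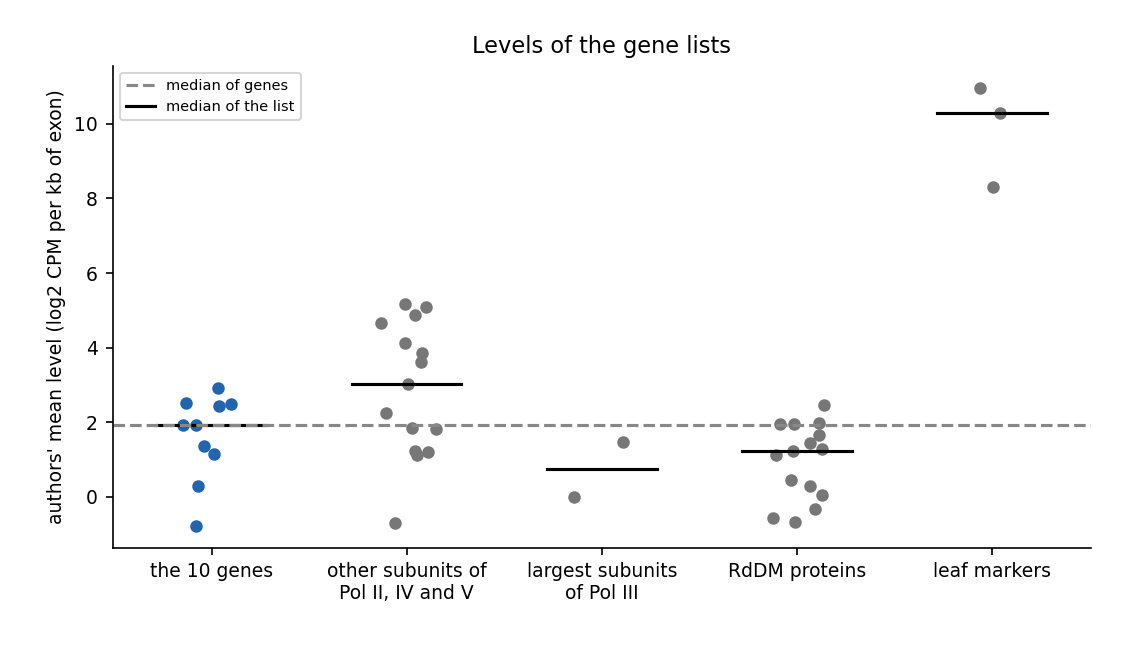
Levels of the gene lists in log2 CPM per kb of exon, from the authors' mean divided here by exon length. Each point is 1 gene with a level, the black bars are list medians and the dashed line is the median of all genes at 1.93. The 10 genes have a median of 1.92, the other polymerase subunits 3.02, the largest Pol III subunits 0.74, the RdDM proteins 1.23 and the leaf markers 10.3.

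Some exons shared sequence with other genes, which bears on how reads could be assigned. Reads with more than one alignment had an entry of their own in the table, with 57.4% of the summed mean CPM, while genes held 39.3%. Windows of 50 bases in the exons were searched in the nuclear genome on both strands. In NRPD2/NRPE2 315 of 3754 windows (8.39%) were found more than once, with copies in NRPD2B and in no other gene. In NRPD2B 357 of 4166 windows (8.57%) were repeated. Reads of at most 50 bases that lie wholly inside such a window cannot be told apart by sequence. With windows of 100 bases, an alternative chosen after seeing the data, the share in NRPD2/NRPE2 was 2.09%. The longest stretch without a difference from NRPD2B was 169 bases long, lay wholly in coding sequence of exon 6 of 8 and had its copy at chr3:6198533-6198701. It is shown on the sense strand because it is the longest part of NRPD2/NRPE2 that sequence alone cannot assign.
NRPD2/NRPE2 stretch, chr3:8569473-8569641, minus strand: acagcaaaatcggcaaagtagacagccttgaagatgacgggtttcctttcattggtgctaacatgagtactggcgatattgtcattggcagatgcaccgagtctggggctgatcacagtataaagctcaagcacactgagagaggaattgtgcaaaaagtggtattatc

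The level of NRPD2/NRPE2 was 4.16-fold that of NRPD2B per kb, at 1.36 against -0.69 log2 CPM per kb, and the part of the shared stretches in either value was not tested. In NRPE1 54 of 5812 windows (0.93%) were repeated, all inside the gene, and with windows of 100 bases 0 of 5044 were. In NRPD4/NRPE4 5 of 437 windows (1.14%) were repeated. The other 7 genes held no repeated window.

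Exons of 3 of the genes overlapped exons of another gene. NRPA2 shared 108 bases at its 3′ end with the convergent gene CAB1 (AT1G29930, chr1:10477885-10479114, plus strand), a chlorophyll-binding protein whose own mean was 10.35 log2 CPM, or 1306 CPM, against 15.2 CPM for NRPA2. NRPE5 shared 112 bases with AT3G57072 on the other strand, and NRPA1 shared 148 bases with a U2 small nuclear RNA gene on its own strand. Without the shared bases the lengths gave 1.96 log2 CPM per kb for NRPA2, 2.55 for NRPE5 and 0.33 for NRPA1. The counts also had an entry named ambiguous, with 1.02% of the summed mean CPM. Whether the counting used strand is not given in the sources used here, so the part of the overlapping genes in these levels was not tested.

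The Hi-C data bear on the genes through lists of *nrpe1* DMRs, which are published regions that lose DNA methylation in *nrpe1* and so mark sites where Pol V is needed for methylation. For each *ago4* and *nrpe1* library, a list gave the *nrpe1* DMRs that took part in an interaction. No list for Col-0 was used here, so the lists cannot show whether an interaction was gained over wild type. Which region each DMR interacted with was not analysed here. The lists held 215, 265 and 207 DMRs in the *ago4* libraries and 50, 176 and 65 in the *nrpe1* libraries, 541 different DMRs in all. The distance from each gene to the nearest listed DMR was measured. A list start may be off by 1 base, since the lists do not say from which base they count.

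No DMR of any list lay within 50 kb of any of the 6 Pol IV and Pol V genes. Their nearest listed DMR was 75.3 to 285.1 kb away, with a median of 122.9 kb, beside a median of 125.5 kb over the 27444 annotated protein-coding genes. The distance was 114.1 kb for NRPD1, 87.6 kb for NRPE1 and 75.3 kb for NRPD2/NRPE2. It was 131.8 kb for NRPD4/NRPE4, 285.1 kb for NRPE5 and 183.1 kb for NRPE7. Of all protein-coding genes, 28.3% had a listed DMR within 50 kb, beside 0 of these 6.

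The DMR nearest to NRPD1, chr1:23240148-23240609, downstream of the gene, stood in all 3 *nrpe1* lists and in *ago4* list 2. In the other *ago4* lists the nearest DMR was 257.8 kb and 1694 kb away. For NRPD2/NRPE2 the nearest DMR, chr3:8492036-8492275, was held by each of the *ago4* lists. In the *nrpe1* lists it was missing and the nearest lay 140.7 to 329.2 kb away. For NRPE7 all 3 *ago4* lists also gave the same DMR, chr4:8591038-8591811. NRPE1 had a different nearest DMR in each *ago4* list, at 553.9, 87.6 and 197.0 kb, and lay 631.6 to 5551 kb from the nearest DMR of the *nrpe1* lists.

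**Figure D4:**
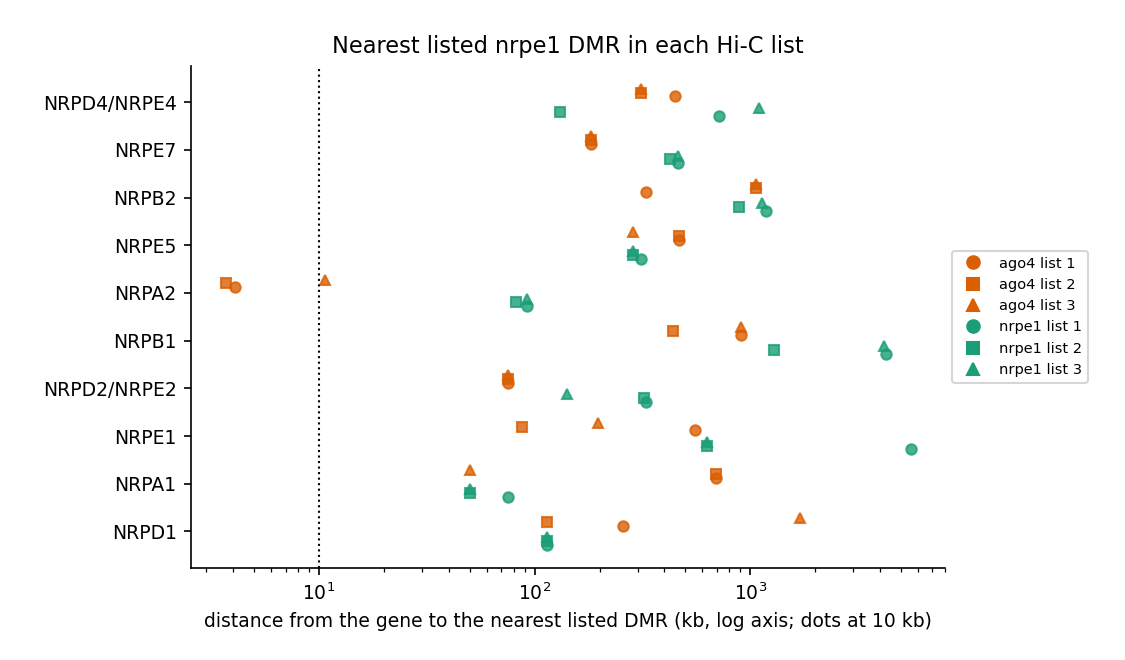
Distance in kb, on a log axis, from each polymerase gene to the nearest *nrpe1* DMR in each Hi-C list. Orange symbols are the 3 *ago4* lists and green symbols the 3 *nrpe1* lists, with circles, squares and triangles for replicates 1, 2 and 3, and the dotted line is at 10 kb. NRPA2 is the only gene with symbols left of the line, at 3.68 and 4.06 kb in 2 *ago4* lists.

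Among the 4 genes kept for comparison, NRPB1 and NRPB2 had their nearest listed DMR at 436.1 and 328.3 kb. NRPA1 had it at 50018 bases, in *ago4* list 3 and in *nrpe1* lists 2 and 3. NRPA2 was the only one of the 10 genes with a listed DMR within 10 kb, beside 8.03% of all protein-coding genes. All its near DMRs came from *ago4* lists, and the lists of *nrpe1* gave none nearer than 81.6 kb. Of all protein-coding genes, 6.48% had a DMR of an *ago4* list and 3.36% a DMR of an *nrpe1* list within 10 kb, and these lists differ in length.

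Upstream of NRPA2, the nearest DMR of *ago4* list 2 lay 3683 bases and that of *ago4* list 1 lay 4059 bases from the gene. A further DMR, chr1:10497434-10497912, lay 10610 bases away and stood in *ago4* lists 2 and 3. None of the 3 regions overlapped an annotated gene, but each lay nearer to another gene than to NRPA2. The DMR at 3683 bases lay 485 bases from AT1G06297, a long noncoding RNA gene. The one at 4059 bases lay 621 bases from the protein-coding gene AT1G29950. The one at 10610 bases lay 147 bases from the protein-coding gene AGL64. The sequences of the 2 nearer regions are shown because they are the only listed DMRs within 10 kb of any of the genes, with the cutting site of *Dpn*II, the enzyme of the Hi-C libraries, in capitals (GATC).
DMR of *ago4* list 2, chr1:10490507-10490715, plus strand: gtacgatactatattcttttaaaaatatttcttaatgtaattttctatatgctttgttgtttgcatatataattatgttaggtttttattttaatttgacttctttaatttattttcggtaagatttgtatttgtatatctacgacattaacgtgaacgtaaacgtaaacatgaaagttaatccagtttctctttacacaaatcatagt
DMR of *ago4* list 1, chr1:10490883-10491077, plus strand: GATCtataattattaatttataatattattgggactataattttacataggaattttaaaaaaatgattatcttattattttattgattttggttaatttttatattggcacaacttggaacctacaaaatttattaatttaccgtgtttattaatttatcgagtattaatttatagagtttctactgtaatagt

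Both were rich in A and T, at 76.6% of 209 bases and 81.0% of 195 bases. With starts read as printed, the first held 0 *Dpn*II sites and the second held 1, at its first base. If the lists count from 0, the second region begins 1 base later and does not hold that site whole. Neither was in a list together with the other, and neither was in *ago4* list 3.

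**Figure D5:**
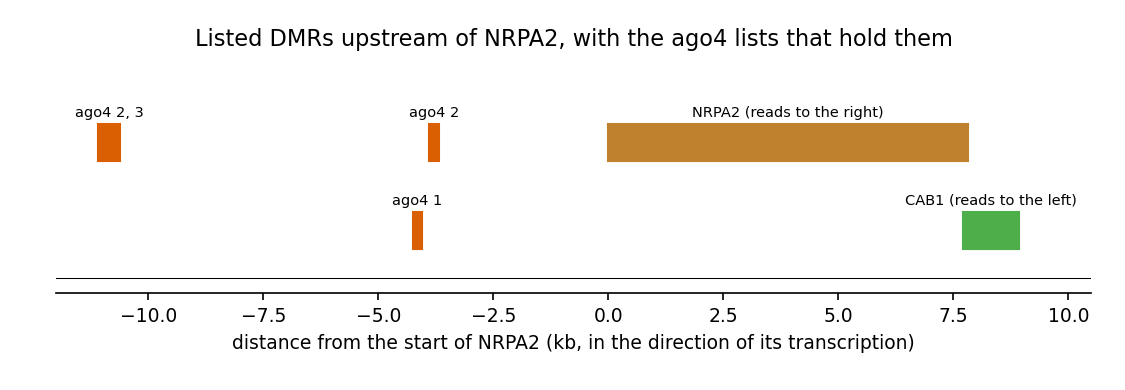
Region of NRPA2, with distance in kb from its start site along the direction of its transcription. Orange boxes are the listed DMRs with the *ago4* list numbers that hold them, at 3.68, 4.06 and 10.6 kb upstream, the brown box is NRPA2 and the green box is CAB1, which overlaps the 3′ end of NRPA2. Other genes of the region, some of them nearer to the DMRs than NRPA2, are not drawn.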

How the data were processed

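For RNA-seq, reads were mapped to TAIR10 with TopHat2 and compared with edgeR by the authors, who deposited per gene a mean log2 CPM, a log2 fold change of *ago4* over Col-0 and an unadjusted p-value. The fold changes and p-values are the authors' own comparison and were not used, so no test was made. Every level comes from the authors' pooled mean. Depth per library is unknown. For Hi-C, read ends were mapped to TAIR10 with Bowtie. The lists of DMRs also hold columns of unlabelled numbers, which were not used.

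Of 16755 genes, 16604 were found on the nuclear chromosomes in the RefSeq annotation of TAIR10.1. CPM was divided by merged exon length. Proteins were translated from annotated coding sequence and aligned globally (BLOSUM62, gap penalties 11 and 1). NRPD4/NRPE4 was not translated because its annotated coding length of 619 bases is not whole codons. Python 3.11.15 and Biopython 1.88 were used, and scripts were tested on simulated data.

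All 10 members are named, with the highest and lowest gene of each other list and AGO4. The members and lists were chosen with earlier results of these data known.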

Additional observations from a re-analysis of the deposited data

How the results depend on the processing

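The differences of NRPD1, NRPE1 and NRPD2/NRPE2 from their Pol II counterparts kept their direction and stayed within 1.5-fold of the reported value with every other length tried. NRPD1 minus NRPB1 ranged from -2.91 without length correction to -2.57 with coding length, and NRPE1 minus NRPB1 from -0.79 to -0.69. NRPD2/NRPE2 minus NRPB2 moved from -1.12 to -0.99 when the exon length was reduced by the share of repeated windows, an alternative chosen after seeing the data like that without bases shared with other genes. Without length correction, also tried after seeing the data for the second-largest against the largest subunit, NRPB2 minus NRPB1 turned from 0.57 to -0.059 and NRPD2/NRPE2 minus NRPE1 from 0.23 to -0.46, while the other 3 pairs kept their direction, as all 5 did with the longest transcript or coding length. The summed level of NRPD1 and NRPE1 over that of NRPD2/NRPE2, recomputed after seeing the data, was 1.05 to 1.10 with the other lengths and 1.67 without length correction. Scaled to the entries of genes alone, every level rose by 1.34 on the log2 scale, and the median of the 10 genes went from 3.18 to 4.52 log2 CPM. Ranks moved by at most 5 percentage points under 20 of 30 alternatives, and by more under the 10 that ranked a gene among genes of like exon length, which was also chosen after seeing the data. The number of the 10 genes with a DMR of an *ago4* list was 1 within 10 kb, 0 within 2.5 kb and 1 within 50 kb, and it stayed at 1 without any one *ago4* list. For the *nrpe1* lists it was 0 within 10 kb and 0 within 50 kb. The 0 within 2.5 kb and without any one *nrpe1* list follows from the 0 within 10 kb. The levels have no replicate values, so no error can be given for any difference between genes.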
